A study of Mus musculus with 3 samples.

Results

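Cell cycle and DNA replication genes were followed in the RNA of blood G-MDSCs, the granulocytic subgroup of myeloid-derived suppressor cells, in normal and tumor-bearing mice. The members were listed by gene symbol and not by a rule on measured values, though with earlier results of these data known. All 35 were found among the 26655 Ensembl genes of the deposited tables. They were split by known role into 4 genes of G1/S control, 8 of the replication machinery, 4 of nucleotide supply, 6 of S phase and G2 and 13 of mitosis. All 3 libraries came from CD11b+Gr1+ peripheral blood cells of C57BL/6J mice, enriched on magnetic beads through Ly6G. There was 1 library from normal mice, 1 from mice that had carried a subcutaneous tumor of B16F10, a mouse melanoma line, for 2 weeks (2Ws), and 1 from such mice at 3 weeks (3Ws). The sample descriptions give weeks and another label field gives months. Weeks were used here. The methods state that tumors were implanted in female mice, and the number of mice behind each library was not given. With 1 library per condition there was no replicate check, and no test between conditions could be made.

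A dividing cell passes G1, copies its DNA in S phase, prepares in G2 and separates its chromosomes in mitosis. Cyclins and their kinases drive these steps, the MCM ring unwinds the DNA, and the spindle, its kinases and the anaphase-promoting complex carry out the separation. In the bone marrow, neutrophil precursors divide up to the myelocyte stage, and the neutrophils that enter blood are post-mitotic. In bulk RNA, fewer cells of a type and less RNA per cell cannot be told apart.

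By recovery from the values, depth was 17325747 reads for the normal, 16549246 for the 2Ws and 17075753 for the 3Ws library. Neutrophil markers were abundant in each, with the alarmin subunits S100a9 at 24594, 27455 and 37319 and S100a8 at 8385, 10195 and 14548 FPKM, a fragment count scaled to exon length and depth. Xist, the RNA of the inactive X chromosome, was at 0.00966, 24.7 and 0 FPKM, while Ddx3y of the Y chromosome was at 19.9, 0 and 23.1. The sex-linked RNA of the normal and 3Ws libraries thus goes against female mice and that of the 2Ws library does not. In each comparison that uses the 2Ws library, the tumor time and the sex-linked difference cannot be told apart, and 0 members lie on X or Y. The 3Ws library stood lower for most genes. Of the genes with at least 1 FPKM in either library, 70.2% were under normal mice at 3Ws, with a median ratio of 0.813, against 49.9% and 0.999 at 2Ws. Ratios at 3Ws are therefore set beside this shift.

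Most members were scarce in these cells. At least 1 FPKM was reached by 32 of the 35 in normal mice, by 24 at 2Ws and by 19 at 3Ws. Hmgb2, a DNA-bending chromatin protein, was far above the rest, and the other members above 10 FPKM in normal mice were Ccnd3, Pcna and Mki67. Leaving out Hmgb2 and Ccnd3, the other 33 summed to 106.4, 80.2 and 63.9 FPKM in the normal, 2Ws and 3Ws libraries, the order used for values below. In 26 of the 35 genes the order was normal mice, then 2Ws, then 3Ws, from high to low. The share of all genes in this order is not given here, so the count is not read as particular to the members. At 3Ws 70.2% of all genes were under normal mice and 72% under 2Ws. The order also includes steps within counting error, such as that of Cdk1 with 32 and 31 reads at 2Ws and 3Ws.

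**Figure D1:**
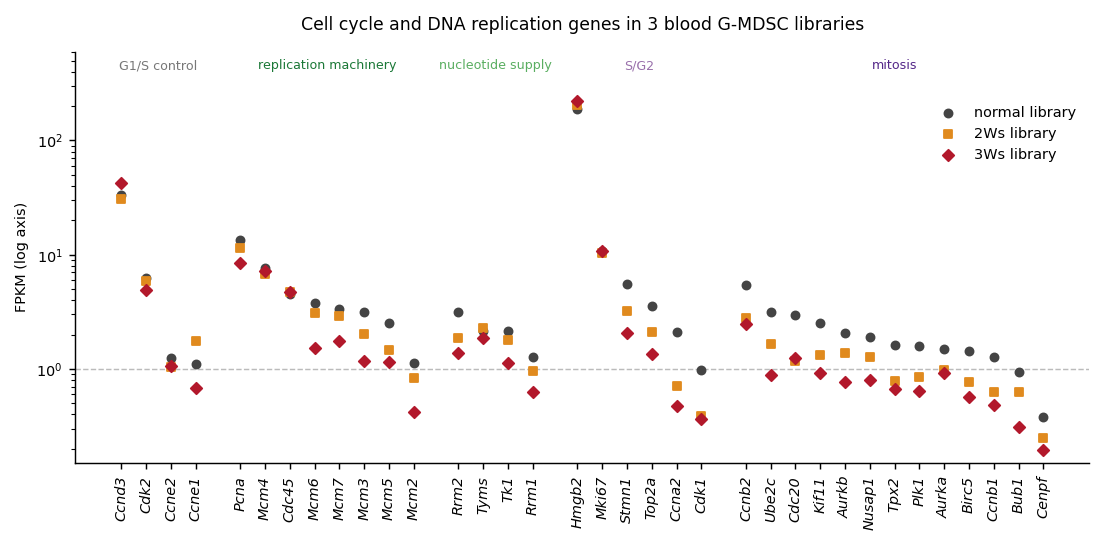
FPKM of each of the 35 members on a log axis, 1 point per library, grouped by role and ordered by level in normal mice; the dashed line marks 1 FPKM. Mitosis genes lie lowest, with medians of 1.62, 0.979 and 0.775 FPKM in the normal, 2Ws and 3Ws libraries, while Hmgb2 lies between 189.9 and 220.1 FPKM.

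The members' promoters were read next, because genes of one phase often share control sequences. E2F sites are known from genes of G1/S and replication, and the cell cycle genes homology region (CHR) from genes of G2 and mitosis, often near a CCAAT box bound by NF-Y. In resting cells the DREAM complex is known to hold both kinds of promoter off, through E2F sites and CHR elements. RefSeq windows of GRCm38.p6, from 250 bases before to 50 after an annotated start, matched 29 of the 35 members in 31 windows. Mcm4, Ccne2, Stmn1, Ccna2, Tpx2 and Aurkb had no entry in the table. Letters were searched on both strands as TTTGAA or TTCGAA for the CHR, CCAAT for the NF-Y box, and TTTCCCGC, TTTGGCGC, TTTCGCGC or TTTGCCGC for E2F.

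A pair of mitosis genes with CHR letters close to the start and a pair of MCM genes with E2F letters show both layouts. Capitals mark CHR, CCAAT and E2F letters on either strand. The windows are chr4:118437294-118437593 (Cdc20), chr9:70421505-70421804 (Ccnb2), chr1:20820263-20820562 (Mcm3) and chr1:128359656-128359955 (Mcm6), all on the minus strand and written 5′ to 3′.
Cdc20: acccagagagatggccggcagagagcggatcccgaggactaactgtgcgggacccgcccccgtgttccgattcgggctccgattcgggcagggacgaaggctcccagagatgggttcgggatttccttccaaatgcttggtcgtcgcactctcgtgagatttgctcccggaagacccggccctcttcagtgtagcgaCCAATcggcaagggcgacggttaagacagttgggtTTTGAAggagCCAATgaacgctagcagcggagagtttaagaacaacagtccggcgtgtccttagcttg
Ccnb2: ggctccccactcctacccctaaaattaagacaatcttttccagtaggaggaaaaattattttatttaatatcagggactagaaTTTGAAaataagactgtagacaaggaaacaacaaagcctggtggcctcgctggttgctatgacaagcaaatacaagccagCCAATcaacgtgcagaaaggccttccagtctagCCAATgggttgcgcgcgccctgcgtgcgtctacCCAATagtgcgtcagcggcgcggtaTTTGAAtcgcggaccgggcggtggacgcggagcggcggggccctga
Mcm3: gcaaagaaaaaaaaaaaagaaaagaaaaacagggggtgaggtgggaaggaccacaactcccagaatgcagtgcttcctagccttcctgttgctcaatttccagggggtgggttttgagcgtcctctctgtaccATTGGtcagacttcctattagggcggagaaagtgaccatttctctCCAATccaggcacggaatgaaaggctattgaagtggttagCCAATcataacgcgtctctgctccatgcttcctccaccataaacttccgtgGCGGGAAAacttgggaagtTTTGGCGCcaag
Mcm6: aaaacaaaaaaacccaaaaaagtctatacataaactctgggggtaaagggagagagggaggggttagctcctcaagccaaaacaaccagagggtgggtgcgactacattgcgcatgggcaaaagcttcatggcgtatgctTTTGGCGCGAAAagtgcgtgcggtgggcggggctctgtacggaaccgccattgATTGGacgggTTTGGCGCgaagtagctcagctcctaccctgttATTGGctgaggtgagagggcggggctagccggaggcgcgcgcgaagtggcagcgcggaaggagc

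Cdc20 held 1 CHR match and 2 CCAAT boxes, and Ccnb2 held 2 and 3, with no E2F letters in either. Mcm3 and Mcm6 held 2 and 3 E2F matches and no CHR letters. In Mcm6, a pair of E2F matches on opposite strands overlap and read as 1 run of capitals. Mki67 and Hmgb2 are shown next because their RNA was not lower in tumor-bearing mice although their windows carry CHR letters. The same holds for Cdc45, whose window is not printed. The windows of Mki67 and Hmgb2 are chr7:135716330-135716629 on the minus strand and chr8:57511593-57511892 on the plus strand.
Mki67: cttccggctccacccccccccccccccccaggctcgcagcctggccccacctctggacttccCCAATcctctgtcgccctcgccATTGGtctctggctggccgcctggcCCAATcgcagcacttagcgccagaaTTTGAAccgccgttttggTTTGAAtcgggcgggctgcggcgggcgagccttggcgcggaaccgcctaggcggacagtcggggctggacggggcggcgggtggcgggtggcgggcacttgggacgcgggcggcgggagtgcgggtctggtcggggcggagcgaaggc
Hmgb2: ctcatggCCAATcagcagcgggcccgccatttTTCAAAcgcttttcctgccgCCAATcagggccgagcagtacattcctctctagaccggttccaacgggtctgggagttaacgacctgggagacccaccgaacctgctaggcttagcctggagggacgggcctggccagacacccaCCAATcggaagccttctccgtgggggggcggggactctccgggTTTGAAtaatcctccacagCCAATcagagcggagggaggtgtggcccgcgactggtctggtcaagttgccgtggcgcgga

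CHR letters were in the windows of 8 of 11 mitosis genes, 4 of 4 S phase and G2 genes, 3 of 7 replication genes, 0 of 4 nucleotide supply genes and 0 of 3 G1/S genes. Over all RefSeq windows 19.2% held them, and over all genes, counting any window of a gene, 21.7%. E2F letters were in 4 of 7 replication genes, 1 of 4 S phase and G2 genes, 1 of 3 G1/S genes, 0 of 4 nucleotide supply genes and 0 of 11 mitosis genes, against 2.26% of all windows and 2.60% of all genes. CCAAT was in 24 of the 29 members and in 37.4% of all windows. The 15 members with CHR letters had a median ratio to normal mice of 0.653 at 2Ws, over a range of 0.389 to 1.08, and the 14 without had 0.794, over 0.490 to 1.60, so both sets overlapped widely. A match is a description of the letters and not a proven site.

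**Figure D2:**
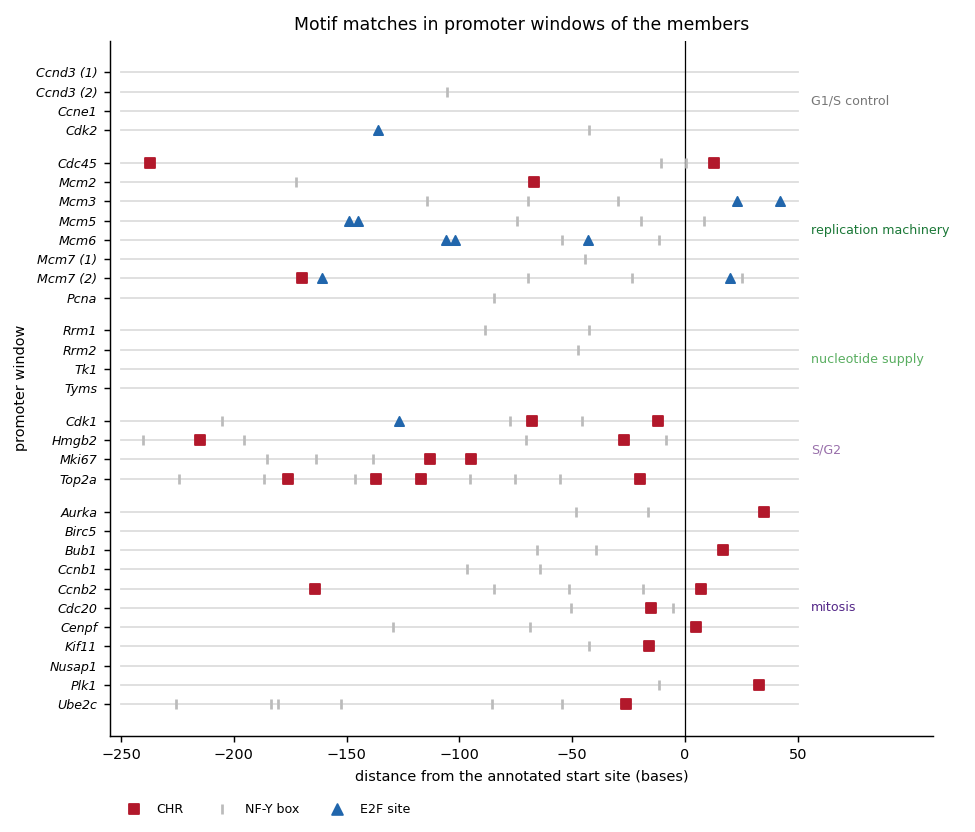
Matches to the CHR (squares), the NF-Y box, whose letters are CCAAT (grey bars), and E2F sites (triangles) in the 31 promoter windows of 29 members, by distance in bases from the annotated start site; numbers in brackets mark separate windows of a gene. CHR squares crowd the S phase, G2 and mitosis rows, with 4 of 4 and 8 of 11 genes, and E2F triangles the replication rows, with 4 of 7.

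Genes of mitosis were lower at 2Ws already. Each of the 13 had an FPKM ratio to normal mice between 0.389 and 0.668 at 2Ws, with a median of 0.530, and their summed level was 26.8, 14.5 and 10.9 FPKM. The 95% interval of the ratio, an exact Clopper-Pearson interval of the recovered reads that covers counting error only, lay under 1 in 13 of 13 genes at both times. A ratio whose interval lies under 1 is called lower by the read interval here. Among all genes with at least 1 FPKM in either library, 18.7% were lower by that rule at 2Ws and 53.2% at 3Ws. Of the 13 mitosis genes, 11 passed that level filter.

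Cdc20, which activates the anaphase-promoting complex, is a gene of chromosome 4, at 118432901 to 118437352 in GRCm38. Its level was 3.00, 1.16 and 1.25 FPKM, resting on 97, 36 and 40 reads. Relative to normal mice it was 2.57-fold lower at 2Ws (95% interval 1.74 to 3.88) and 2.39-fold lower at 3Ws (1.64 to 3.55). Its whole difference was thus present at 2Ws. Cdc20 shares 53 exon bases with Elovl1 on the other strand, which was at 32.4, 28.5 and 30.0 FPKM, and the use of strand in counting is not given in the sources used here.

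Ube2c, the ubiquitin-conjugating enzyme that works with that complex, had 3.17, 1.65 and 0.878 FPKM. It was 1.92-fold lower at 2Ws (1.44 to 2.60) and 3.61-fold lower at 3Ws (2.52 to 5.29). Unlike Cdc20 it was lower again at 3Ws than at 2Ws, by 1.88-fold (1.25 to 2.85).

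The mitotic cyclins had a like course. Ccnb2, a cyclin B, had 5.39, 2.80 and 2.49 FPKM, and was 1.92-fold lower at 2Ws (1.44 to 2.60) and 2.17-fold lower at 3Ws (1.61 to 2.95). Ccnb1, the main cyclin B, had 1.29, 0.630 and 0.486 FPKM from 94, 44 and 35 reads. Between the tumor times neither differed beyond counting error.

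Of the mitotic kinases, Plk1, which acts from mitotic entry to cytokinesis, had 1.57, 0.852 and 0.639 FPKM. Aurka, the spindle pole kinase, had 1.48, 0.979 and 0.926 FPKM, and was 1.51-fold lower at 2Ws with an interval that nearly reached 1 (1.01 to 2.30). Aurkb, the kinase of the chromosomal passenger complex, had 2.06, 1.37 and 0.775 FPKM. Its partner in that complex, Birc5 (survivin), had 1.44, 0.764 and 0.568 FPKM. Aurkb was lower at 3Ws than at 2Ws by 1.77-fold (1.18 to 2.70), and for Plk1, Aurka and Birc5 the interval between the tumor times held 1.

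Bub1, a kinase of the spindle checkpoint, had 71, 45 and 23 reads, or 0.941, 0.625 and 0.309 FPKM, and was 3.04-fold lower at 3Ws (1.88 to 5.10). Cenpf, a kinetochore protein, was the scarcest member at 0.378, 0.247 and 0.197 FPKM. The spindle genes Tpx2, which activates Aurora A, Nusap1, which bundles microtubules, and Kif11, the motor that parts the spindle poles, were 2.05-fold, 1.52-fold and 1.91-fold lower at 2Ws. At 3Ws they were 2.44-fold, 2.42-fold and 2.72-fold lower. Recovered reads were not whole for Kif11, so the fewest whole reads that fit its values were used, which gives the widest interval.

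**Figure D3:**
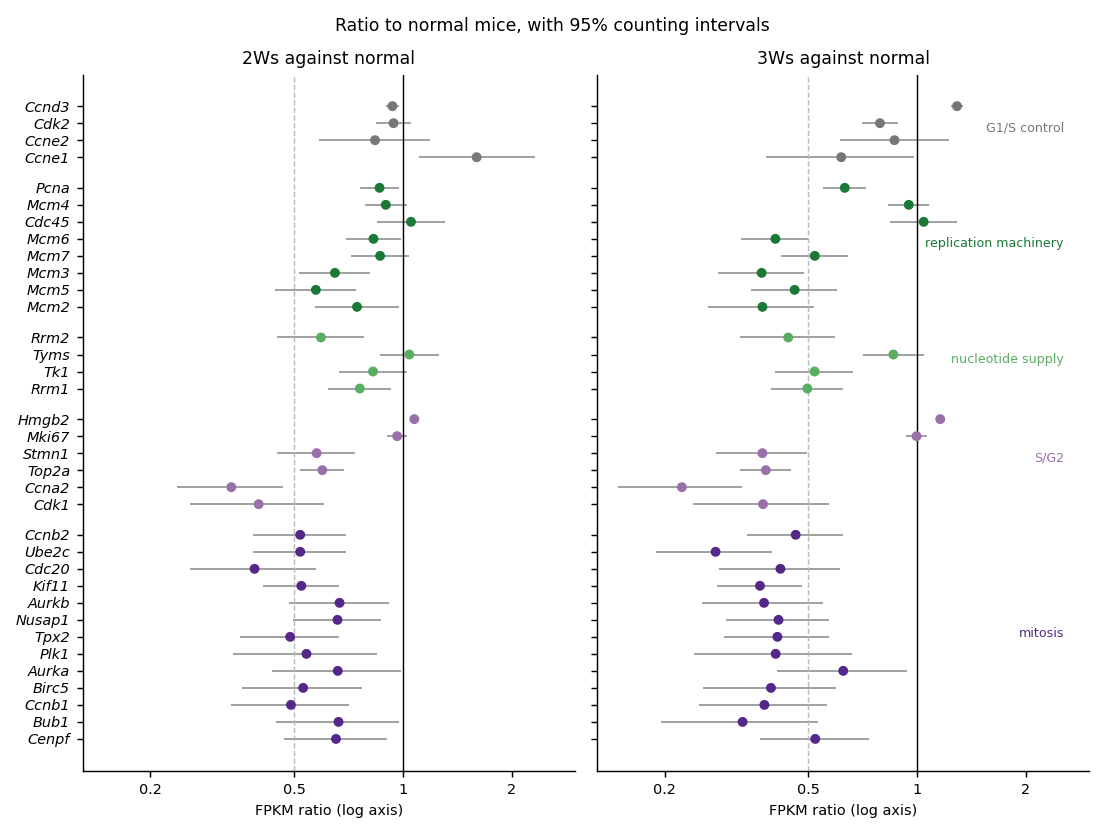
FPKM ratio to normal mice of each member at 2Ws (left) and 3Ws (right) on log axes, with exact 95% counting intervals as bars; the solid line is 1 and the dashed line 0.5. The 13 mitosis bars lie left of 1 in both panels, and Mki67 and Mcm4 have bars that cross 1 in both.

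The S phase and G2 genes divided into members that were much lower and members that were not. Ccna2, the cyclin that drives S phase and entry into mitosis, is a gene of chromosome 3, at 36564865 to 36572150. Its level was 2.12, 0.710 and 0.473 FPKM, from 150, 48 and 33 reads. Against normal mice it was 2.98-fold lower at 2Ws (2.14 to 4.22) and 4.48-fold lower at 3Ws (3.06 to 6.74), the largest differences in FPKM ratio among the 35 members. On the scale of log2(FPKM + 1), which weighs genes near 1 FPKM less, Cdc20 was further from normal mice at 2Ws, and Ube2c and Stmn1 at 3Ws. Its kinase partner Cdk1 had 0.983, 0.392 and 0.368 FPKM and was 2.51-fold lower at 2Ws (1.65 to 3.90). The levels of Cdk1 at the tumor times did not differ beyond counting error.

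Top2a, the topoisomerase that untangles copied DNA, had 3.53, 2.11 and 1.34 FPKM from 551, 315 and 207 reads. Against normal mice it was 1.67-fold lower at 2Ws (1.45 to 1.93) and 2.62-fold lower at 3Ws (2.23 to 3.09). Stmn1 (stathmin), which destabilises microtubules, had 5.56, 3.21 and 2.07 FPKM, and was 1.73-fold and 2.68-fold lower. Both were also lower at 3Ws than at 2Ws by the read interval.

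Mki67, the gene of the proliferation marker Ki-67, did not share this pattern. It lies on chromosome 7 from 135689784 to 135716361 and had 10.7, 10.3 and 10.7 FPKM from 1868, 1721 and 1835 reads. The ratio to normal mice was 0.965 at 2Ws (0.903 to 1.03) and 0.997 at 3Ws (0.934 to 1.06), so the intervals leave out the ratio found for each mitosis gene. The intervals of Aurka, Aurkb, Bub1 and Cenpf still overlap that of Mki67 at 2Ws, and that of Aurka does at 3Ws. On the FPKM scale, Top2a was at 32.9%, 20.4% and 12.6% of the Mki67 level.

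Hmgb2, on chromosome 8, had 189.9, 204.4 and 220.1 FPKM and was higher in tumor-bearing mice, by a ratio of 1.08 at 2Ws (1.05 to 1.11) and 1.16 at 3Ws (1.13 to 1.19). Among all genes with at least 1 FPKM in either library, 18.9% were higher by the read interval at 2Ws and 17.4% at 3Ws. Both Mki67 and Hmgb2 held 2 CHR matches in the windows printed above.

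Most genes of the replication machinery were lower in tumor-bearing mice. The 8 genes had a median ratio to normal mice of 0.846 at 2Ws and 0.490 at 3Ws, and 5 and 6 of them were lower by the read interval. The shares over all genes with at least 1 FPKM in either library were 18.7% and 53.2%. Mcm6, a subunit of the MCM helicase ring on chromosome 1 from 128331590 to 128359664, had 3.75, 3.11 and 1.52 FPKM from 303, 240 and 121 reads. Against normal mice it was 1.21-fold lower at 2Ws (1.01 to 1.43) and 2.47-fold lower at 3Ws (1.99 to 3.07). Most of its difference thus came between 2Ws and 3Ws, also beside the all-gene median of that step, unlike that of Cdc20.

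Mcm2 had 1.13, 0.843 and 0.421 FPKM and was 2.68-fold lower at 3Ws (1.93 to 3.79). Mcm7 had 3.38, 2.92 and 1.76 FPKM, and its ratio at 2Ws, 0.865, had an interval that held 1 (0.718 to 1.04). Mcm7 shares 321 exon bases with Ap4m1 and 64 with Cops6 on the other strand. Mcm3 had 3.15, 2.05 and 1.17 FPKM, and Mcm5 had 2.53, 1.45 and 1.16. These subunits were lower at 2Ws already, by 1.54-fold (1.23 to 1.94) and 1.74-fold (1.35 to 2.26).

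Mcm4, the remaining subunit of the ring, had 7.64, 6.85 and 7.24 FPKM from 475, 407 and 444 reads. Its ratio was 0.897 at 2Ws (0.784 to 1.03) and 0.948 at 3Ws (0.831 to 1.08). The 6 proteins act as 1 ring, and their RNA levels did not keep 1 ratio. As a share of Mcm4 on the FPKM scale, Mcm6 was at 49.1%, 45.4% and 21.0%, and Mcm3 was at 41.3%, 29.9% and 16.2%.

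Pcna, the sliding clamp of the DNA polymerases, was the most abundant gene of the group at 13.3, 11.5 and 8.42 FPKM. It was 1.16-fold lower at 2Ws (1.02 to 1.32) and 1.58-fold lower at 3Ws (1.38 to 1.82). Cdc45, which joins MCM to form the active helicase, had 4.51, 4.75 and 4.71 FPKM, with ratios whose intervals held 1. Its reads were not whole, and it shares 209 exon bases with Ufd1 on the other strand, which was at 12.4 FPKM in normal mice.

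Genes of nucleotide supply had a median ratio of 0.794 at 2Ws, between those of mitosis and replication, and of 0.509 at 3Ws. Rrm2, the inducible subunit of ribonucleotide reductase, had 3.12, 1.85 and 1.37 FPKM and was 2.27-fold lower at 3Ws (1.69 to 3.09). Its partner subunit Rrm1 had 1.26, 0.960 and 0.628 FPKM and was 2.01-fold lower at 3Ws (1.61 to 2.53). Tk1, the thymidine kinase of the salvage route, had 2.17, 1.79 and 1.13 FPKM and was 1.92-fold lower at 3Ws. Tyms, which makes thymidylate, had 2.17, 2.26 and 1.87 FPKM, and its interval held 1 at both times.

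Genes of G1/S control did not move as a group. Ccnd3 (cyclin D3), a partner of Cdk4 and Cdk6, had 33.1, 30.9 and 42.6 FPKM. Its ratio was 0.936 at 2Ws (0.899 to 0.974) and 1.29 at 3Ws (1.24 to 1.34), and relative to Actb, the beta-actin gene, the 2Ws value moved to the other side of normal mice. Ccne1, a cyclin E that starts S phase with Cdk2, had 1.11, 1.77 and 0.682 FPKM from 51, 78 and 31 reads. It was above normal mice at 2Ws by a ratio of 1.60 (1.11 to 2.33) and 1.62-fold lower at 3Ws (1.02 to 2.62).

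Ccne2, the other cyclin E, had 1.24, 1.04 and 1.07 FPKM from 75, 60 and 64 reads. Its interval at 2Ws held 1 and reached down to a level 1.71-fold lower. Cdk2, the kinase of both cyclins, had 6.23, 5.87 and 4.92 FPKM and was 1.27-fold lower at 3Ws (1.13 to 1.42). Its ratio there, 0.789, had an interval that held the all-gene median of 0.813, and 0 of the 4 G1/S genes had an interval below that median. Ccne2 shares 609 exon bases with Ints8 on the other strand.

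The phases were then compared by the step at which each gene was lower. Between normal mice and 2Ws, the median ratio was 0.530 for mitosis and 0.588 for S phase and G2, against 0.846 for replication, 0.794 for nucleotide supply and 0.939 for G1/S control. Between 2Ws and 3Ws it was 0.750 for mitosis and 0.803 for S phase and G2, against 0.667 for replication, 0.697 for nucleotide supply and 0.936 for G1/S control. The median over all genes was 0.833 for that second step. The larger step was the first for 10 of 13 mitosis genes and 5 of 6 S phase and G2 genes, and the second for 6 of 8 replication genes and 3 of 4 nucleotide supply genes. This split depends on the shift of all genes. Once each ratio was divided by the all-gene median of its step, the second was the larger decrease for 3 of 8 replication genes, Mcm2, Mcm6 and Mcm7, and for 2 of 4 nucleotide supply genes. The first was then the larger for 12 of 13 mitosis genes and 5 of 6 S phase and G2 genes. Replication medians on that scale were 0.846 and 0.801, and mitosis medians 0.530 and 0.901, in the first and second step.

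Set against the all-gene median of each step, the interval of the ratio lay below it for 13 of 13 mitosis genes in the first step and for 1 of 13, Ube2c, in the second. For replication genes it lay below for 5 of 8 in the first step and for 4 of 8 in the second, which were Mcm2, Mcm3, Mcm6 and Mcm7. When log2 ratios were centred on genes expressed in both libraries (1 FPKM or more), a shift of 0.16 for this step, Cdk1, Ccnb1, Ccnb2, Aurka, Cenpf, Tpx2 and Cdc45 passed from just under 2Ws to just above it. Both steps use the 2Ws library, which also stands apart in sex-linked RNA, so an error in it would move them in opposite directions. The difference between the phases was not tested, since genes are not replicates. Its size can depend on the genes listed and on the level filter, which were not told apart. The phase medians of the members carry no filter. Other genes of these pathways are given below with a filter on their mean level. Of these, 23 of 50 mitosis genes and 17 of 45 replication genes passed, with median ratios at 2Ws of 0.830 and 0.858. Scarce genes are left out of these 2 medians, so they are not a like comparison with the members. By the read interval, 11 of these 23 and 2 of these 17 were lower.

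**Figure D4:**
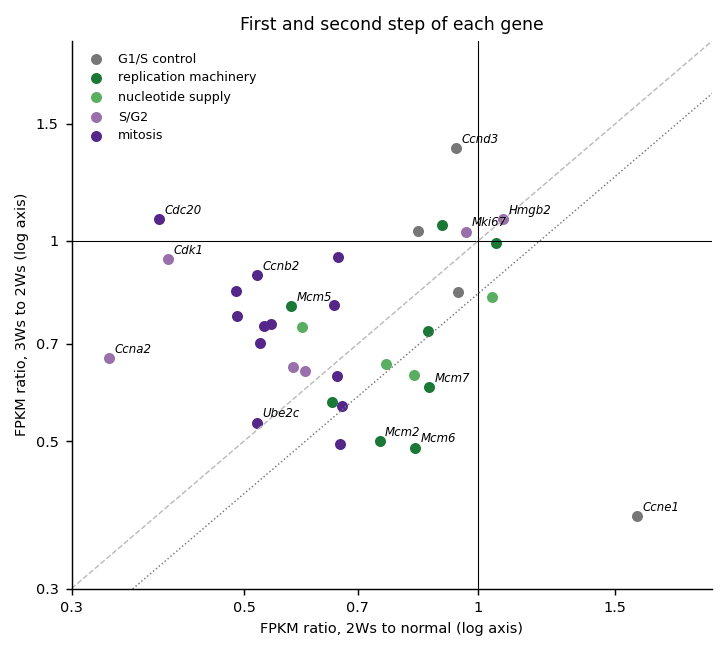
Each member's FPKM ratio from normal mice to 2Ws (x, log axis) against its ratio from 2Ws to 3Ws (y, log axis), coloured by role; solid lines mark 1, the dashed diagonal equal steps, and the dotted one equal steps after division by each step's all-gene median. Mitosis genes lie mostly above the diagonal, with 10 of 13 having the larger decrease in the first step, and 6 of 8 replication genes lie below it, of which 3 also lie below the dotted line.

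Over the whole list, 25 of 35 genes were lower by the read interval at 2Ws, 2 were higher and for 8 the interval held 1. At 3Ws 28 were lower, 2 were higher and for 5 it held 1. From 2Ws to 3Ws 16 were lower and 2 higher. Shares over all genes were taken among those with at least 1 FPKM in either library. Of the members that passed this filter, 22 of 32 were lower and 2 higher at 2Ws, against 18.7% and 18.9% of all genes. At 3Ws 25 of 32 were lower and 2 higher, against 53.2% and 17.4%. From 2Ws to 3Ws 13 of 24 were lower and 2 higher, against 51.9% and 14.9%. Against the all-gene median ratio of 0.813 at 3Ws, the interval of 25 members lay below and that of 5 above. The 5 were Ccnd3, Mcm4, Cdc45, Mki67 and Hmgb2, and after centring, Mcm4, Mki67, Tyms and Ccne2 lay above normal mice at 3Ws.

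The 2-fold rule gave few calls. It asked for at least 1 FPKM in either library and at least 2-fold on the scale of log2(FPKM + 1), which understates the change of genes near 1 FPKM. At 2Ws, 32 members passed the level filter, and 0 were called lower and 0 higher, against 1.22% and 1.29% of all genes. At 3Ws, 3 of 32 were called lower and 0 higher, against 7.89% and 2.60% of all genes. The 3 were Ccna2, Stmn1 and Ube2c, with log2 ratios of -1.08, -1.09 and -1.15, and after centring on expressed genes 0 were called lower. From 2Ws to 3Ws 24 members passed and 0 were called, against 7.37% lower and 2.00% higher.

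The share called was thus near the background. The median log2 ratio of the members that passed was -0.35 at 2Ws, -0.65 at 3Ws and -0.27 between the tumor times, beside 0.00, -0.24 and -0.21 for all genes. Without a pseudocount and with the read interval, 4 of 32 reached a 2-fold lower level at 2Ws against 1.28% of all genes, 19 of 32 at 3Ws against 17.4%, and 2 of 24 between the tumor times against 15.5%. The 4 at 2Ws were Ccna2, Cdc20, Ccnb1 and Tpx2, of which only Cdc20 also reached 1 FPKM at 2Ws. A filter on either library also keeps genes that reach 1 FPKM in only 1 of them. For the members that library was the normal one, where 32 reached 1 FPKM, against 24 at 2Ws and 19 at 3Ws. Member counts against normal mice under this filter therefore lean towards lower calls, and no excess over all genes is read from them. Over the 35 members without the filter, the median ratio was 0.660 at 2Ws and 0.440 at 3Ws.

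Other genes of the same pathways were taken from lists by known role. Since a filter on either library also keeps genes that are high in only 1 of them, a mean of at least 1 FPKM over the 3 libraries was asked for here. Under it 19.1% of all genes were lower by the read interval and 19.2% higher at 2Ws, and 53.0% and 17.8% at 3Ws. Of 50 other mitosis genes 23 passed, of which 11 were lower and 3 higher at 2Ws, and 20 lower and 2 higher at 3Ws. Their most abundant members were Cks2, a Cdk-binding protein, at 76.5, 64.4 and 52.0 FPKM, Pttg1 (securin) at 38.3, 32.1 and 25.3, and Kif23, a motor of cytokinesis, at 27.8, 30.4 and 24.4. Pbk, a mitotic kinase, had 1.80, 0.709 and 0.490 FPKM, and Racgap1, a partner of Kif23, had 2.59, 2.15 and 0.935. Cdc25b, a phosphatase that activates Cdk1, went the other way at 7.85, 10.4 and 16.1 FPKM, a ratio of 2.05 at 3Ws (1.84 to 2.28).

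Of 45 other replication genes 17 passed by their mean. At 2Ws 2 of these were lower and 2 higher, no more than the share over all genes, and at 3Ws 17 were lower. Rpa1, a single-strand DNA-binding subunit, had 3.03, 3.28 and 0.892 FPKM, Cdt1, which loads MCM onto DNA, had 2.13, 1.73 and 0.560, and Tipin of the replication fork had 1.70, 1.10 and 0.470. The abundant members Rfc2, Slbp and Gins4 were at 7.70, 6.49 and 6.80 FPKM in normal mice and 6.39, 5.61 and 5.08 at 3Ws. Median ratios to normal mice at 2Ws and 3Ws were 0.858 and 0.582 for these 17 replication genes and 0.830 and 0.599 for the 23 mitosis genes, beside 1.00 and 0.827 for all genes.

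Several brakes of the cell cycle were abundant. Of 29 listed genes 21 passed by their mean, with a median ratio of 1.03 at 2Ws and 0.842 at 3Ws. At 2Ws 4 were lower and 7 higher, and at 3Ws 11 were lower and 5 higher. Btg1, an antiproliferative factor, was at 325.2, 336.2 and 343.2 FPKM, its relative Btg2 at 226.2, 243.2 and 185.3, and Cdkn1b (p27), a Cdk inhibitor, at 96.8, 105.0 and 122.0. Cdkn1a (p21), another Cdk inhibitor, had 8.59, 4.68 and 4.37 FPKM, and Trp53 (p53) had 7.85, 6.96 and 3.42. Cdkn3, a phosphatase that acts on Cdk2, had 1.34, 1.49 and 0.379 FPKM.

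Of 15 drivers of G1 and of E2F control 11 passed by their mean. At 2Ws 2 were lower and 3 higher, near the shares over all genes, and at 3Ws 10 were lower and 1 higher. Myc, a growth transcription factor, had 6.61, 7.05 and 1.51 FPKM and was at a ratio of 0.228 at 3Ws (0.174 to 0.297). Cdk4, the kinase of the D cyclins, had 4.80, 4.76 and 1.05 FPKM, and Ccnd1 (cyclin D1) had 4.40, 5.53 and 1.62. The 2-fold rule called these 3 lower at 3Ws. The most abundant, E2f2 and Tfdp1, which form an E2F dimer, were at 37.8 and 29.5 FPKM in normal mice and 29.9 and 33.1 at 3Ws, and Ccnd2 was at 8.77 and 5.81.

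Markers of other cells and stages also moved. Of 8 myelocyte markers, genes of the last dividing stage of neutrophil precursors, 7 were lower by the read interval at 2Ws and 6 at 3Ws, where 2 were higher, and their summed level was 4486, 2623 and 3129 FPKM. Ngp, a granule protein, had 2201, 1226 and 1197 FPKM, while Lcn2, another, had 492.2, 524.1 and 996.7. Promyelocyte markers summed to 9.42, 7.58 and 4.61 FPKM, with Prtn3 at 5.83, 6.42 and 3.96 and Elane at 1.88, 0.491 and 0.357. The summed levels at 2Ws lay on the same side of normal mice as the mitosis genes, with Lcn2 and Prtn3 on the other side. The interval of Prtn3 at 2Ws held 1 (0.890 to 1.36), and Elane rested on 32, 8 and 6 reads. This side was not particular to these lists, since the monocyte, erythroid, progenitor and plasma cell sums also lay under normal mice at 2Ws.

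B cell markers went the other way at 2Ws. Their sum was 202.9, 285.5 and 41.6 FPKM, led by the B cell receptor genes Cd79a at 68.2, 94.2 and 13.3 and Cd79b at 49.6, 68.1 and 9.003, and 9 of 10 were higher by the read interval at 2Ws. Platelet markers summed to 110.5, 130.7 and 24.2 FPKM, led by the chemokines Pf4 at 71.4, 66.8 and 11.1 and Ppbp at 19.6, 34.2 and 5.57. Monocyte markers summed to 712.0, 571.9 and 378.7, led by the protease Ctss at 295.6, 216.9 and 146.6 and the receptor Csf1r at 148.9, 129.9 and 103.9. All of these lists were lower at 3Ws in their sum. Erythroid markers summed to 22.8, 11.2 and 99.3 FPKM, led by the globins Hbb-bs at 9.62, 2.68 and 43.6 and Hba-a1 at 4.26, 2.75 and 20.2. Plasma cell markers summed to 83.9, 81.5 and 128.9, led by Xbp1, a secretory factor, at 65.2, 52.5 and 121.5 and Mzb1, an antibody chaperone, at 13.6, 20.1 and 2.46. T and NK cell markers summed to 10.4, 11.7 and 12.9, most of it Gzma at 4.93, 4.47 and 7.40 and Nkg7 at 1.39, 1.19 and 2.05. The intervals of Nkg7 held 1 in each comparison. T cell genes of that list were lowest at 3Ws in part, with Cd3d at 1.21, 2.00 and 0.807 FPKM and Cd4 at 0.387, 0.569 and 0.116. The erythroid, plasma cell and T and NK cell sums were thus highest at 3Ws, as were those of the neutrophil and progenitor lists. The plasma cell sum followed Xbp1, while Mzb1 was lowest at 3Ws. Progenitor markers summed to 3.13, 2.88 and 7.65 FPKM, with the receptors Kit at 0.725, 0.841 and 7.08 and Flt3 at 1.14, 1.03 and 0.237. Of the melanoma markers, Mitf was at 3.89, 3.96 and 2.52 FPKM, Pmel at 1.33, 1.53 and 2.66, and Sox10 at 0 in each library. Hoxa9 was at 0 in normal mice, Tyrp1 at 0 in normal mice and at 2Ws, and Sox4 at 0 at 3Ws. The part of these markers in the members' differences was not tested.

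**Figure D5:**
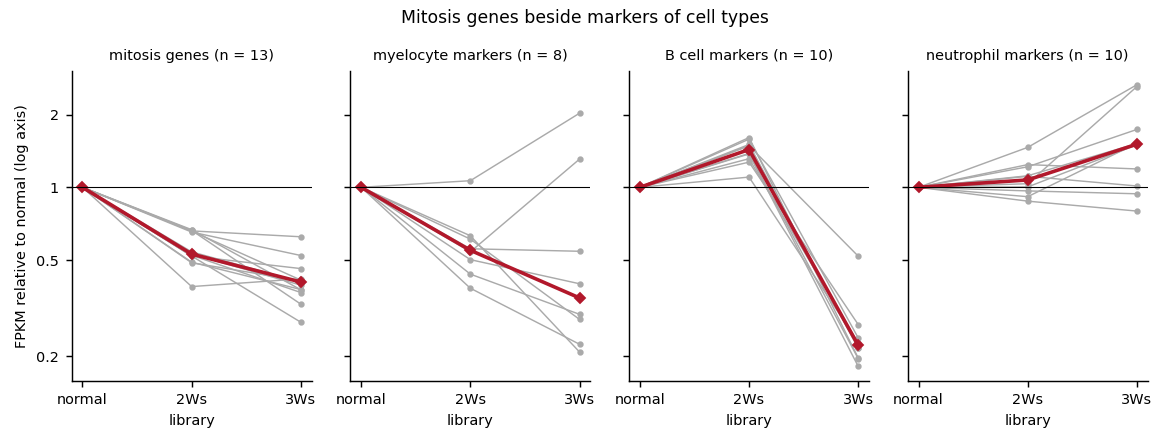
FPKM relative to normal mice on a log axis in the 3 libraries for the 13 mitosis members and for markers of myelocytes (8), B cells (10) and neutrophils (10); grey lines are genes and the red line their median. Mitosis genes and most myelocyte markers lie under 1 at 2Ws, where B cell markers lie above it, and B cell markers lie far under 1 at 3Ws.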

How the data were processed

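RNA-seq was made of blood G-MDSCs as 1 library per condition on an Illumina instrument. The authors aligned reads to GRCm38 with HISAT2 2.1.0, with an index from Bowtie2 2.2.3 per the submitters' processing notes, and deposited FPKM per Ensembl gene. The tool that counted reads, its annotation and its strand setting were not given in the sources used here. GENCODE M21 named 26588 of 26655 genes, and 67 had no name. Read numbers were computed from FPKM, exon length and the library total that made them whole, within 0.001, for 20743 of the 23378 genes above 0 (88.7%) and for 33 of 35 members. Their sum was 105.7%, 105.9% and 105.7% of these totals. Intervals are exact Clopper-Pearson at 95%. The comparisons were 2Ws with normal, 3Ws with normal and 3Ws with 2Ws, with a pseudocount of 1 FPKM, a filter of 1 FPKM in 1 of the compared libraries and a 2-fold rule. Those with normal mice share a library.

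The members and lists were chosen with earlier results of these data known. Named were all members, per pathway list the 3 highest means and 3 largest differences at 3Ws, and per marker list the 2 highest means and markers at 0, of which 1 is not reported here. Other pathway genes were also counted with a filter on the mean of the libraries, chosen after values were seen. Named outside this rule, after values were seen, were Xist, Ddx3y, Cd3d, Cd4 and genes that overlap members. Of the listed genes, 5 were not used here. Calculations used Python 3.11.15 (scipy 1.17.1, pandas 2.3.3, numpy 2.4.6, matplotlib 3.10.9) and were tested on simulated data. Alternatives were other pseudocounts, filters, folds and scalings. Promoter sequences are from RefSeq.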

Additional observations from a re-analysis of the deposited data

Results flagged for a closer look

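A pair of G1/S genes lay on opposite sides of normal mice at the tumor times by the read interval. Ccnd3 had a log2 ratio of -0.09 at 2Ws and 0.36 at 3Ws. Ccne1 had 0.40 at 2Ws and -0.32 at 3Ws, from 51, 78 and 31 reads in the normal, 2Ws and 3Ws libraries. The difference between the times was not tested, since each condition has 1 library, and both ratios use the same normal library.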

How the results depend on the processing

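Counts of members called lower depended on the rule. At 2Ws the count of 0 became 6 with a 1.5-fold rule, 2 with a pseudocount of 0.1 or 0.5, 4 without a pseudocount, an alternative chosen after seeing the data, and 4 with the read ratio and its interval. At 3Ws against normal mice the count of 3 became 19 with a 1.5-fold rule, 0 with a 4-fold rule, 0 after centring on the median of expressed genes, 1 with a filter at 5 FPKM, 8 and 18 with pseudocounts of 0.5 and 0.1, 19 without one and 19 with the read ratio. From 2Ws to 3Ws the count of 0 became 2, 1, 2 and 2 with the 1.5-fold rule, the pseudocount of 0.1, no pseudocount and the read ratio. Counts of members called higher were 0 under each alternative run. The median log2 ratio of -0.35 at 2Ws became -0.12 with the 5 FPKM filter, which leaves 8 members, -0.59 without a pseudocount and -0.55 with 0.1. That of -0.65 at 3Ws became -0.18, -1.16 and -1.11 in the same order and -0.86 with a pseudocount of 0.5. That of -0.27 between the tumor times became 0.057 with the 5 FPKM filter, which leaves 6 members, -0.44 and -0.43 in that order, and -0.10 after centring, where the median of all genes was -0.05. A larger pseudocount shrinks ratios of genes near 1 FPKM by construction, and the cause was not tested for the other alternatives. A single log2 ratio was said to move if it changed by at least 0.5 times the log2 width of its counting interval. Of 105 single ratios, 25 moved without a pseudocount, 15 with 0.1, 7 under centring and 4 relative to Actb. With a pseudocount of 0.5, or when S100a8 and S100a9 or hemoglobin, immunoglobulin and mitochondrial genes were left out, 0 moved. Members with 23 to 100 reads have wide intervals, and without replicates the spread between mice is not known. No paired analysis was possible because each condition has 1 library.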

Other observations

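The genes whose profile over the 3 libraries was closest to the mean profile of the 13 mitosis members, among 10704 genes with at least 50 recovered reads in 1 library, were Hist1h2bc, Cxcr3, Maf, Hcar2 and Ddx58. Closeness was the summed absolute difference of log2(FPKM + 1) values, each centred on its own mean, and it was 0.032 for Hist1h2bc and 0.045 for Ddx58. Hist1h2bc, a histone H2B gene, had 175.1, 122.2 and 107.0 FPKM, and Cxcr3, a chemokine receptor, had 3.23, 2.09 and 1.66. Maf, a transcription factor, had 2.25, 1.26 and 1.01 FPKM, Hcar2, a metabolite receptor, had 79.6, 57.6 and 48.8, and Ddx58, an RNA sensor, had 45.6, 33.2 and 28.5. With 3 points per gene, such likeness is a description.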
